A study of Mus musculus with 6 samples.

Results

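Kruppel-like factors (KLFs) are zinc finger transcription factors, and 10 of them are described here: Klf2, Klf3, Klf4, Klf5, Klf6, Klf7, Klf9, Klf10, Klf13 and Klf16. They were chosen by gene symbol from a deposited table of 54532 mouse genes, in which each symbol matched 1 row. The table holds FPKM values (fragment counts set relative to the length of the gene and the size of the library) from 6 RNA sequencing libraries whose labels name mouse lung. In 3 libraries the label is aged (18 months) and in 3 it is young (3 months). No treatment is labelled, with strain and sex not given in the sources used here, and both groups carry the same tissue label and RNA protocol. Nothing in the labels ties a library to a mouse of its own, so the p-values measure spread between libraries, which may be technical.

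The transcripts in these libraries went against the tissue label. All 8 endothelial markers lay under 1 FPKM in every library, with Pecam1 at most 0.322 FPKM, and so did 6 of 8 alveolar type 2 markers, with Sftpd listed at 0 throughout. By contrast, 7 of 9 fibroblast markers reached at least 10 FPKM in all 6 libraries. The libraries are therefore called aged-labelled and young-labelled. Exceptions among fibroblast markers were Dcn and Lum, at most 0.109 and 0.0482 FPKM in any library. Exceptions among alveolar type 2 markers were Napsa, at 17.5 to 21.8 FPKM, and Abca3, at 0.721 to 1.38 FPKM. Recovered reads summed to between 16649061 and 16906850 per aged-labelled library and between 17266815 and 17456715 per young-labelled library. Kidney tubule transcripts appeared in young-labelled libraries 1 and 3, where 9 markers summed to 134 and 27.4 FPKM, against at most 3.22 FPKM in any other library. Some marker sums also differed between the groups. The 8 leukocyte markers summed to 35.2 to 35.6 FPKM in aged-labelled libraries, against 10.5 to 12.7 FPKM in young-labelled ones, nearly all of it Cd68 and Lyz2, while Ptprc (CD45) reached at most 0.0953 FPKM. The 6 alveolar type 1 markers summed to 407 to 419.6 FPKM in aged-labelled libraries, against 257 to 263 FPKM in young-labelled ones, mostly Cav1, Aqp5 and Pdpn, while Hopx stood lower, at 5.68 to 6.48 FPKM in aged-labelled libraries against 9.998 to 10.4 FPKM in young-labelled ones. The 6 smooth muscle and pericyte markers summed to 67.3 to 69.7 FPKM in aged-labelled libraries, against 45.7 to 46.9 FPKM in young-labelled ones, mostly Cspg4, with Acta2 at most 0.163 FPKM. The other abundant marker among them was lower, Des at 9.69 to 10.5 FPKM in aged-labelled libraries against 11.6 to 11.7 FPKM in young-labelled ones. Fibroblast markers also moved apart, with Fn1 at 923 to 993 FPKM in aged-labelled libraries against 522 to 529 FPKM in young-labelled ones and Col3a1 at 18.8 to 19.7 FPKM in aged-labelled libraries against 60.1 to 63.7 FPKM in young-labelled ones. The part of these markers in the results that follow was not tested. In bulk libraries, fewer cells of a type and less RNA per cell cannot be told apart.

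KLF proteins bind GC-rich DNA, chiefly CACCC elements and GC boxes, through C2H2 zinc fingers at the end of the protein. The family is commonly divided by the cofactors its members recruit. Klf2, Klf4, Klf5, Klf6 and Klf7 bind acetyltransferases and mostly activate genes, Klf3 recruits the corepressor CtBP, and Klf9, Klf10, Klf13 and Klf16 recruit the corepressor Sin3A. In lung the family is known above all for Klf2, first called lung Kruppel-like factor, which keeps endothelium quiescent, and for Klf5, which acts in maturing epithelium.

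Promoter stretches are shown for 4 members that differ in behaviour: Klf4 and Klf13, which were higher in aged-labelled libraries, Klf9, which was lower, and Klf6, the most abundant, which did not pass the test. The sequences are RefSeq's, on build GRCm38.p6. Of the 10 members, 7 matched an entry in the promoter table used, and Klf5, Klf10 and Klf16 are named only. Each stretch is read 5′ to 3′ on the gene's own strand and ends just before the RefSeq start of the gene, or, for Klf6, 7 bases earlier, where the deposited gene begins. They lie at chr4:55532476-55532725 (minus strand) for Klf4, chr7:63938916-63939165 (minus strand) for Klf13, chr19:23140976-23141225 (plus strand) for Klf9 and chr13:5861239-5861481 (plus strand) for Klf6. Capitals mark the elements that KLF proteins are known to bind, the GC box GGGCGG and the CACCC element, on either strand, so also CCGCCC and GGGTG.
Klf4: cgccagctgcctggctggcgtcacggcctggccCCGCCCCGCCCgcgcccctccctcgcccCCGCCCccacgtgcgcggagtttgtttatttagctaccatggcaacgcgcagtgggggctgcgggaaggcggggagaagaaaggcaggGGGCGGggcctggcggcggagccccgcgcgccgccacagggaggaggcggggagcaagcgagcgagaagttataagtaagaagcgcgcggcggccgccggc
Klf13: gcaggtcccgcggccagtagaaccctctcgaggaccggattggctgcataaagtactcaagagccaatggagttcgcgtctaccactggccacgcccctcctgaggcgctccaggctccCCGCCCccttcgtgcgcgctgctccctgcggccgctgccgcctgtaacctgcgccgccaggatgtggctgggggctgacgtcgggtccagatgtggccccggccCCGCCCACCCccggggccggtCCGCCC
Klf9: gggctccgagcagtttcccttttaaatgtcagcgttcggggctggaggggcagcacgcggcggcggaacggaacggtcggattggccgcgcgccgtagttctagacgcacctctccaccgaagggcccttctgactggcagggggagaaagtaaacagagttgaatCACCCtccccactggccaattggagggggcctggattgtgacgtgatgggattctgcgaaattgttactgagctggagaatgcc
Klf6: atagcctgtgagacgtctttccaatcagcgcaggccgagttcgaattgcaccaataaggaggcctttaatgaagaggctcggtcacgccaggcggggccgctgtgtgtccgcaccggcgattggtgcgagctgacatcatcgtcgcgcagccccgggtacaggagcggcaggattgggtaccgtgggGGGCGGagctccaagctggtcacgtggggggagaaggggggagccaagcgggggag

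The marked letters differ among these stretches. Klf4 has 4 GC boxes and 0 CACCC elements, and Klf13 has 3 GC boxes, 1 of which overlaps its single CACCC element. Klf9 has 1 CACCC element and 0 GC boxes, and Klf6 has 1 GC box. Within 250 bases before the start, at least 1 GC box was found in 6 of 7 members, against 32.7% of 32817 mouse promoters in the same table. A CACCC element was found in 5 of 7 members and in 52.0% of promoters. The letters CCAAT, searched on both strands, were found in 3 of 7 members and 33.8% of promoters, with 4 in Klf6, 3 in Klf9 and 2 in Klf13. The E box CACGTG was found in Klf4 and Klf6 and in 6.02% of promoters. The AP-1 letters TGANTCA were found in Klf9 and in 6.75% of promoters, and TATAAA in 0 of 7 members and 12.4% of promoters. The member stretches hold 59.2% to 78.4% G and C, against a median of 52.4% over all promoters, and GC boxes are made of the same letters. A match of letters describes the sequence and shows no binding.

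Klf4 and Klf5 were higher in aged-labelled libraries, at 3.68 and 2.08 times their mean FPKM in young-labelled ones. For every other member but Klf2, this ratio lay between 0.812 (Klf16) and 1.58 (Klf13). Of the 9 members that passed a filter on low values (at least 0.5 FPKM in 3 or more libraries), 4 were higher, 2 lower and 3 did not pass limma's test at an adjusted p of 0.05. Klf2 was below the filter and was not tested. Among all 15197 genes tested, 60.0% were called, 27.7% higher and 32.3% lower, so calls were common throughout these libraries. The groups did not overlap for 6 of the 9 members, against 66.9% of all genes tested. In 4 of these members every aged-labelled library was higher, as in 31.3% of genes, and in 2 every one was lower, as in 35.6%. Klf4 was the 1 member called with at least a doubling on the log2(FPKM + 1) scale, which 4.84% of genes passed in either direction. On that scale the median log2 fold change was 0.11 for the 9 members and -0.03 for all genes tested, and the median absolute size was 0.23 for the members and 0.28 for all genes. Without young-labelled libraries 1 and 3, which hold the kidney transcripts, 2 members were higher (Klf4 and Klf5) and 1 was lower (Klf16), while over all genes tested 19.3% were higher and 21.7% lower. Calls were thus fewer throughout the table with these libraries left out.

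**Figure D1:**
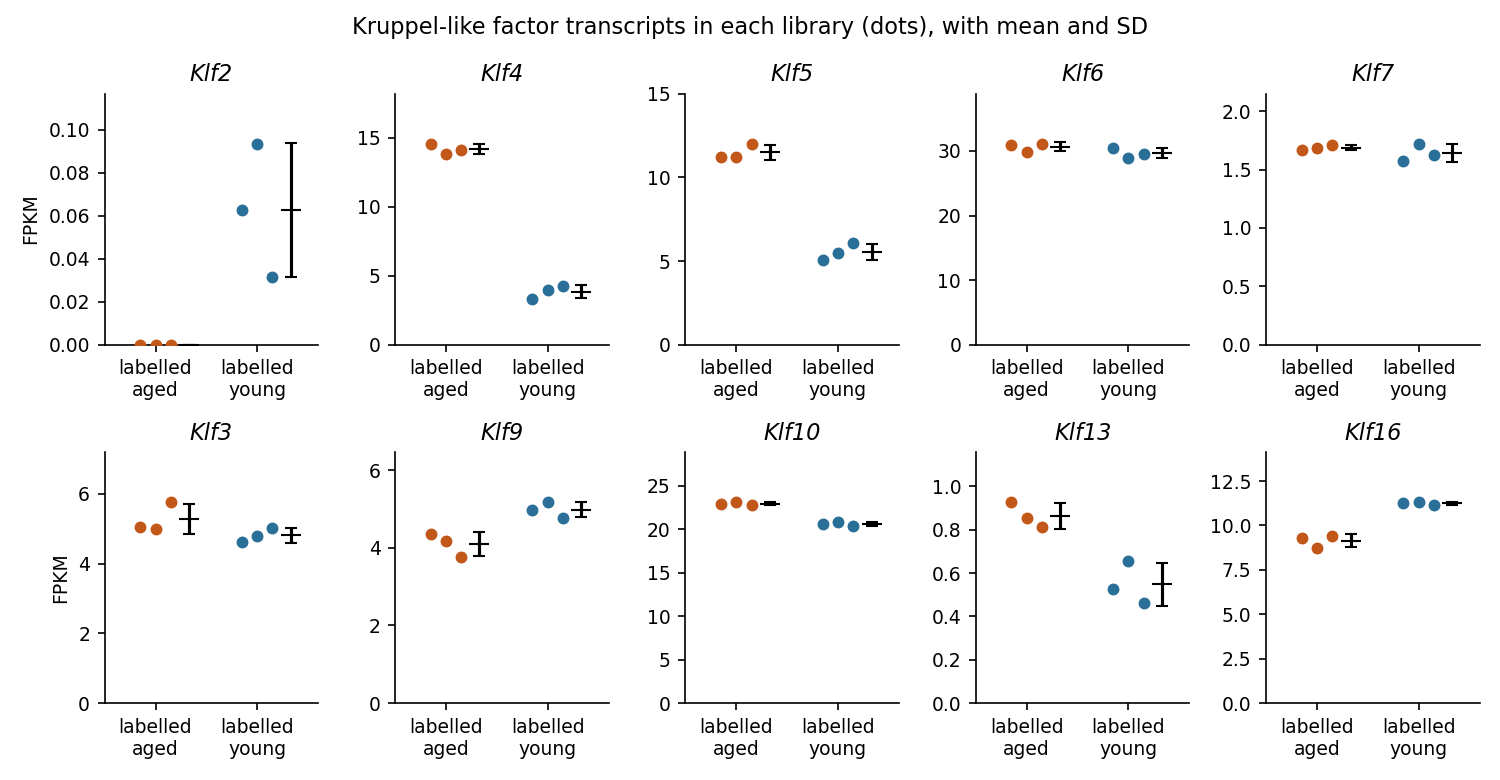
FPKM of each of the 10 members in the 3 aged-labelled libraries (left) and the 3 young-labelled libraries (right), 1 point a library, each panel on its own linear axis from 0, with the mean and SD. Klf4 and Klf5 separate widely, Klf10, Klf13, Klf9 and Klf16 separate by less, and the groups overlap for Klf3, Klf6 and Klf7.

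Klf4 is known for restraining growth in gut and skin epithelium and as a factor that helps to reprogram cells to pluripotency. The gene is annotated as ENSMUSG00000003032, chr4:55527143-55532466, minus strand (mm10). It measured 14.6, 13.8 and 14.1 FPKM in aged-labelled libraries, against 3.33, 3.95 and 4.26 FPKM in young-labelled ones. Every aged-labelled library lay far above the highest young-labelled one. The values rest on 2218 recovered reads in the aged-labelled libraries together and 608 in the young-labelled ones. The difference passed the test (log2 fold change 1.65 ± 0.07 SE, adjusted p = 8.98e-06 by limma), and its absolute size was above that of 99.2% of the genes tested. Reads of Klf4 varied by 3.25% (coefficient of variation) among aged-labelled libraries, where counting alone gives 3.68%, and by 12.4% among young-labelled ones, where counting alone gives 7.02%.

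Klf5, which promotes growth in many epithelia and in smooth muscle, was the other member with a large change. The gene (ENSMUSG00000005148, chr14:99298691-99315036, plus strand) measured 11.2, 11.2 and 12.02 FPKM in aged-labelled libraries, against 5.07, 5.47 and 6.06 FPKM in young-labelled ones. The groups were far apart relative to their spread, at 11.5 ± 0.447 FPKM in aged-labelled libraries, against 5.53 ± 0.498 FPKM in young-labelled ones (SD, n = 3 each). The test was passed (log2 fold change 0.94 ± 0.06 SE, adjusted p = 3.88e-05 by limma), with an absolute size above that of 94.0% of the genes tested. Klf4 stood above Klf5 in aged-labelled libraries and below it in young-labelled ones. Within a library, the ratio of Klf4 to Klf5 FPKM was 1.18 to 1.30 in aged-labelled libraries and 0.658 to 0.722 in young-labelled ones. These ranges do not overlap, and such a ratio does not depend on library scaling.

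Klf6, the most abundant member, hardly differed. It is an early-response gene and a known tumour suppressor (ENSMUSG00000000078, chr13:5861482-5870394, plus strand). Its levels were 31.0, 29.9 and 31.1 FPKM in aged-labelled libraries and 30.5, 28.9 and 29.4 FPKM in young-labelled ones, so the groups overlap. The log2 fold change was 0.05, with a 95% interval of -0.03 to 0.13 and a limma adjusted p of 0.269. After each library was centred on its median, the log2 fold change was 0.11 and the limma adjusted p 0.0258. The interval leaves room for a small difference only.

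Klf7, a widely expressed factor known best from developing neurons (ENSMUSG00000025959, chr1:64029447-64122282, minus strand), was low in both groups. Its levels were 1.67, 1.68 and 1.71 FPKM in aged-labelled libraries and 1.57, 1.72 and 1.62 FPKM in young-labelled ones, and the groups overlap. The log2 fold change was 0.03, with a 95% interval of -0.12 to 0.18 and a limma adjusted p of 0.745.

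Klf2, the factor of flow-exposed endothelium and resting T cells (ENSMUSG00000055148, chr8:72319033-72321656, plus strand), had almost no reads. There were 0 reads in each aged-labelled library, against 2, 3 and 1 reads in young-labelled libraries 1 to 3 (0.0629, 0.0936 and 0.0314 FPKM). With 0 reads, a level of up to 3 reads stays possible, which is 0.0945, 0.0958 and 0.0945 FPKM in aged-labelled libraries 1 to 3. All 6 libraries are at or under 3 reads, so no fold is given. The 8 endothelial markers summed to 1.07 to 1.33 FPKM in aged-labelled libraries, against 0.377 to 0.782 FPKM in young-labelled ones.

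Klf3, the CtBP-recruiting member, known from fat and blood cells (ENSMUSG00000029178, chr5:64803388-64832901, plus strand), did not pass the test. It measured 5.06, 4.99 and 5.76 FPKM in aged-labelled libraries, against 4.62, 4.79 and 5.03 FPKM in young-labelled ones, and the groups overlap. The log2 fold change was 0.11, with a 95% interval of -0.04 to 0.26 and a limma adjusted p of 0.185. The call depended on scaling, since the limma adjusted p was 0.0491 after median centring and 0.0279 with voom on recovered reads, at log2 fold changes of 0.17 and 0.16.

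Of the 4 Sin3A-recruiting members, Klf10 and Klf13 were higher and Klf9 and Klf16 lower, at ratios of mean FPKM between 0.812 and 1.58. Klf10, also known as a TGF-beta inducible early gene (ENSMUSG00000037465, chr15:38291463-38300706, minus strand), was second in abundance to Klf6. It measured 22.8, 23.1 and 22.8 FPKM in aged-labelled libraries, against 20.6, 20.8 and 20.4 FPKM in young-labelled ones. The libraries of each group lay close together, and a ratio of 1.11 passed the test (log2 fold change 0.15 ± 0.03 SE, adjusted p = 0.00405 by limma). Reads of Klf10 varied by 0.127% among aged-labelled libraries, less than the 2.47% that counting alone gives. Without young-labelled libraries 1 and 3 the log2 fold change was 0.13 and the limma adjusted p 0.0815.

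Klf13, which activates the chemokine gene Ccl5 in T cells (ENSMUSG00000052040, chr7:63886351-63938915, minus strand), was low in both groups. It stood at 0.927, 0.853 and 0.811 FPKM in aged-labelled libraries, against 0.524, 0.658 and 0.462 FPKM in young-labelled ones. The groups did not overlap, but the values rest on 105 to 120 reads per aged-labelled library and 60 to 86 reads per young-labelled one. The ratio of mean FPKM was 1.58 (log2 fold change 0.27 ± 0.09 SE, adjusted p = 0.0372 by limma), and the log2 value is understated at this low level by the pseudocount of 1. With a pseudocount of 0.1 it was 0.58. The call was lost without aged-labelled library 1, 2 or 3 (limma adjusted p of 0.102, 0.0804 and 0.0588) and without young-labelled library 1 or 3 (0.0868 and 0.0995). It was also lost with no filter (0.0887), with quantile normalization (0.0924) and without both libraries with kidney transcripts (0.323, at a log2 fold change of 0.17).

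Klf9, a factor induced by glucocorticoid and thyroid hormones (ENSMUSG00000033863, chr19:23141226-23166911, plus strand), was lower in aged-labelled libraries. Its levels were 4.37, 4.17 and 3.76 FPKM in aged-labelled libraries, against 4.98, 5.17 and 4.78 FPKM in young-labelled ones. The groups did not overlap, and the ratio of mean FPKM was 0.824 (log2 fold change -0.23 ± 0.06 SE, adjusted p = 0.0156 by limma). The call was lost without young-labelled library 2 (log2 fold change -0.21, limma adjusted p of 0.0556) and after median centring (-0.16, limma adjusted p of 0.0555). It was also lost without both libraries with kidney transcripts (limma adjusted p of 0.0855), where the log2 fold change was larger in size, at -0.28.

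Klf16, another Sin3A-recruiting repressor (ENSMUSG00000035397, chr10:80567124-80577321, minus strand), was lower by a similar factor. It measured 9.29, 8.71 and 9.40 FPKM in aged-labelled libraries, against 11.3, 11.3 and 11.2 FPKM in young-labelled ones. The young-labelled libraries lay in a narrow range above every aged-labelled one. The ratio of mean FPKM was 0.812 (log2 fold change -0.27 ± 0.04 SE, adjusted p = 0.00116 by limma). Klf9 and Klf16 kept much the same proportion, with a Klf9 to Klf16 ratio of 0.450 ± 0.0432 in aged-labelled libraries and 0.443 ± 0.0147 in young-labelled ones (SD, n = 3 each). The ratio of Klf16 to Klf13 was 10.6 ± 0.856 in aged-labelled libraries and 20.95 ± 3.52 in young-labelled ones.

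**Figure D2:**
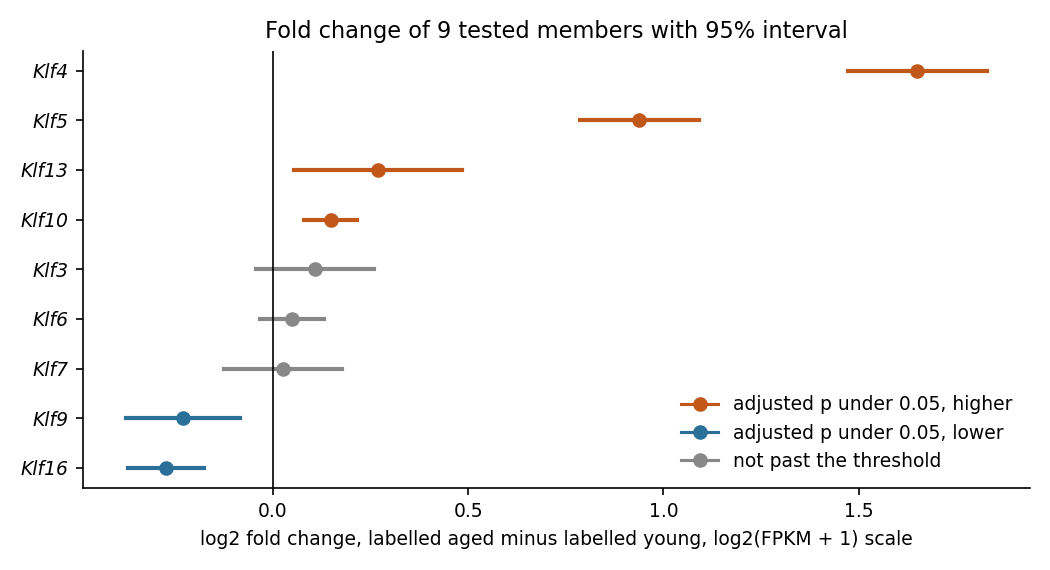
Log2 fold change of the 9 tested members, aged-labelled minus young-labelled, on the log2(FPKM + 1) scale, with the estimate and its 95% interval. Klf4 (1.65) and Klf5 (0.94) stand apart, while every other tested member lies between -0.27 and 0.27.

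Ordered by mean FPKM, the members ran Klf6, Klf10, Klf4, Klf5, Klf16, Klf3, Klf9, Klf7, Klf13 and Klf2 in aged-labelled libraries, and no neighbours in that order had overlapping ranges. In young-labelled libraries the order was Klf6, Klf10, Klf16, Klf5, Klf9, Klf3, Klf4, Klf7, Klf13 and Klf2, where Klf5 overlapped Klf9 and Klf9 overlapped Klf3. Klf4 thus stood at rank 3 in aged-labelled libraries and rank 7 in young-labelled ones. Klf6, Klf10, Klf5, Klf3, Klf7, Klf13 and Klf2 held the same ranks. Among all genes tested, the mean FPKM of Klf6 was above that of 87.1%, that of Klf4 above 60.7% and that of Klf13 above 8.41%.

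The summed FPKM of the 10 members was 100.3 ± 1.63 in aged-labelled libraries and 82.9 ± 0.385 in young-labelled ones (SD, n = 3 each). Klf4 supplied 14.1% ± 0.263 of that sum in aged-labelled libraries and 4.64% ± 0.546 in young-labelled ones. Klf5 supplied 11.5% ± 0.353 in aged-labelled libraries and 6.67% ± 0.570 in young-labelled ones. Klf6 made up a smaller part of the larger sum, at 30.6% ± 0.207 in aged-labelled libraries and 35.7% ± 1.06 in young-labelled ones, although its own level hardly differed. Klf16 supplied 9.10% ± 0.223 in aged-labelled libraries and 13.6% ± 0.146 in young-labelled ones.

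**Figure D3:**
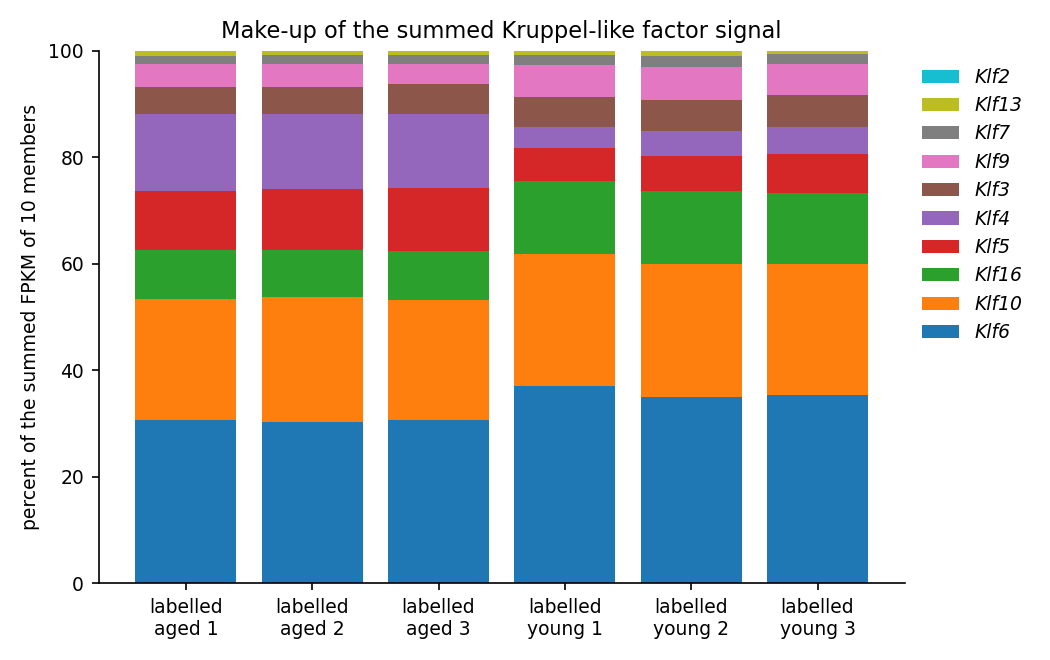
Percent of the summed FPKM of the 10 members that each member supplied, in the aged-labelled libraries (left) and the young-labelled libraries (right). Klf4 averages 14.1% in aged-labelled libraries against 4.64% in young-labelled ones, and Klf6 supplies the most in both.

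The lists used here hold 7 further KLF genes, of which 2 were expressed, both lower in aged-labelled libraries. Klf11, the closest relative of Klf10 and likewise a Sin3A-recruiting, TGF-beta inducible factor, measured 2.30, 2.30 and 2.74 FPKM in aged-labelled libraries, against 6.05, 7.14 and 7.18 FPKM in young-labelled ones (log2 fold change -1.18 ± 0.08 SE, adjusted p = 4.46e-05 by limma). Klf15, a glucocorticoid-induced regulator of metabolism, measured 6.27, 5.68 and 5.52 FPKM in aged-labelled libraries, against 11.4, 10.7 and 11.9 FPKM in young-labelled ones (log2 fold change -0.85 ± 0.06 SE, adjusted p = 4.23e-05 by limma). Klf10 and Klf11 thus moved in opposite directions. Their ratio was 9.44 ± 0.953 in aged-labelled libraries and 3.05 ± 0.306 in young-labelled ones (SD, n = 3 each). The other 5 were not tested. Klf1, the erythroid factor, reached at most 0.339 FPKM, and Klf8, Klf12, Klf14 and Klf17 had between 1 and 12 reads each over the aged-labelled libraries and at most 2 over the young-labelled ones. The deposited table assigns 576 genes to the C2H2 zinc finger class, all 10 members among them. Of 389 tested, 78 (20.1%) were higher and 111 (28.5%) lower, with a median log2 fold change of -0.05.

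The Sp factors, which share the zinc finger type and the GC box with KLF proteins, were mostly lower where they were expressed, with 0 higher, 4 lower and 1 without a call among 5 tested. Among all genes tested, 27.7% were higher and 32.3% lower, which is the background of this and the following list counts. Sp1, the founding member, measured 16.3, 16.6 and 18.5 FPKM in aged-labelled libraries, against 29.0, 29.0 and 28.2 FPKM in young-labelled ones (log2 fold change -0.72 ± 0.05 SE, adjusted p = 4.45e-05 by limma). Sp2 stood at 3.79 ± 0.245 FPKM in aged-labelled libraries, against 6.10 ± 0.137 FPKM in young-labelled ones (SD, n = 3 each, here and in the paragraphs that follow). Sp4 stood at 0.689 ± 0.0656 FPKM in aged-labelled libraries, against 1.52 ± 0.121 FPKM in young-labelled ones.

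Corepressors that KLF proteins recruit included 1 higher, 7 lower and 2 without a call among 10 tested, at a median log2 fold change of -0.22. Over all genes tested, 27.7% were higher and 32.3% lower. Sin3a, the scaffold bound by Klf9, Klf10, Klf13 and Klf16, measured 13.0, 13.0 and 14.2 FPKM in aged-labelled libraries, against 21.6, 20.2 and 21.9 FPKM in young-labelled ones (log2 fold change -0.62 ± 0.05 SE, adjusted p = 7.11e-05 by limma). The histone deacetylase gene Hdac3 stood at 14.7 ± 0.502 FPKM in aged-labelled libraries, against 21.2 ± 0.235 FPKM in young-labelled ones. Sap18, which encodes a protein of the Sin3 complex, was the 1 higher gene, at 34.2 ± 0.834 FPKM in aged-labelled libraries, against 24.7 ± 0.939 FPKM in young-labelled ones. Of the 4 acetyltransferase coactivators, 2 were lower and 2 had no call. Ep300, the p300 enzyme, stood at 6.13 ± 0.182 FPKM in aged-labelled libraries, against 7.47 ± 0.230 FPKM in young-labelled ones. Kat2b (PCAF) stood at 6.48 ± 0.378 FPKM in aged-labelled libraries, against 7.83 ± 0.576 FPKM in young-labelled ones, and its call was lost without aged-labelled library 1 or young-labelled library 1 or 2 (limma adjusted p of 0.0548, 0.0563 and 0.0596), and with median centring or quantile normalization (0.0561 and 0.0551).

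Genes of pathways that act on KLF genes or proteins were mixed, beside 27.7% higher and 32.3% lower among all genes tested. The pathway through MEK5 and ERK5 to MEF2 induces Klf2 and Klf4 in endothelium under flow, and 6 of its genes were tested, 2 higher, 2 lower and 2 without a call. Mef2a, a transcription factor of that pathway, stood at 10.2 ± 0.557 FPKM in aged-labelled libraries, against 5.77 ± 0.265 FPKM in young-labelled ones. Map2k5, which encodes MEK5, stood at 8.004 ± 0.824 FPKM in aged-labelled libraries, against 5.26 ± 0.391 FPKM in young-labelled ones. Map3k3, the gene of the kinase MEKK3, stood at 15.2 ± 0.627 FPKM in aged-labelled libraries, against 18.7 ± 0.204 FPKM in young-labelled ones. Ubiquitin ligases and deubiquitinases that act on KLF proteins were mostly without a call, with 1 higher, 2 lower and 5 without a call. The ligase gene Smurf1 stood at 27.5 ± 1.06 FPKM in aged-labelled libraries, against 20.004 ± 0.181 FPKM in young-labelled ones. Wwp1, a ligase known to act on Klf2 and Klf5, stood at 6.41 ± 0.199 FPKM in aged-labelled libraries, against 8.85 ± 0.187 FPKM in young-labelled ones. Itch, a related ligase gene, stood at 6.22 ± 0.161 FPKM in aged-labelled libraries, against 7.27 ± 0.131 FPKM in young-labelled ones. The glucocorticoid receptor and its targets, which include Klf9 as a known target gene, gave 2 higher, 2 lower and 3 without a call among 7 tested. The genes named next are listed as targets of the receptor. Errfi1, a feedback inhibitor of the EGF receptor, stood at 43.1 ± 4.65 FPKM in aged-labelled libraries, against 10.1 ± 0.860 FPKM in young-labelled ones. The kinase gene Sgk1 stood at 18.1 ± 2.08 FPKM in aged-labelled libraries, against 5.91 ± 0.707 FPKM in young-labelled ones. Per1, a clock gene, went the other way, at 7.07 ± 0.985 FPKM in aged-labelled libraries, against 12.7 ± 0.612 FPKM in young-labelled ones.

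**Figure D4:**
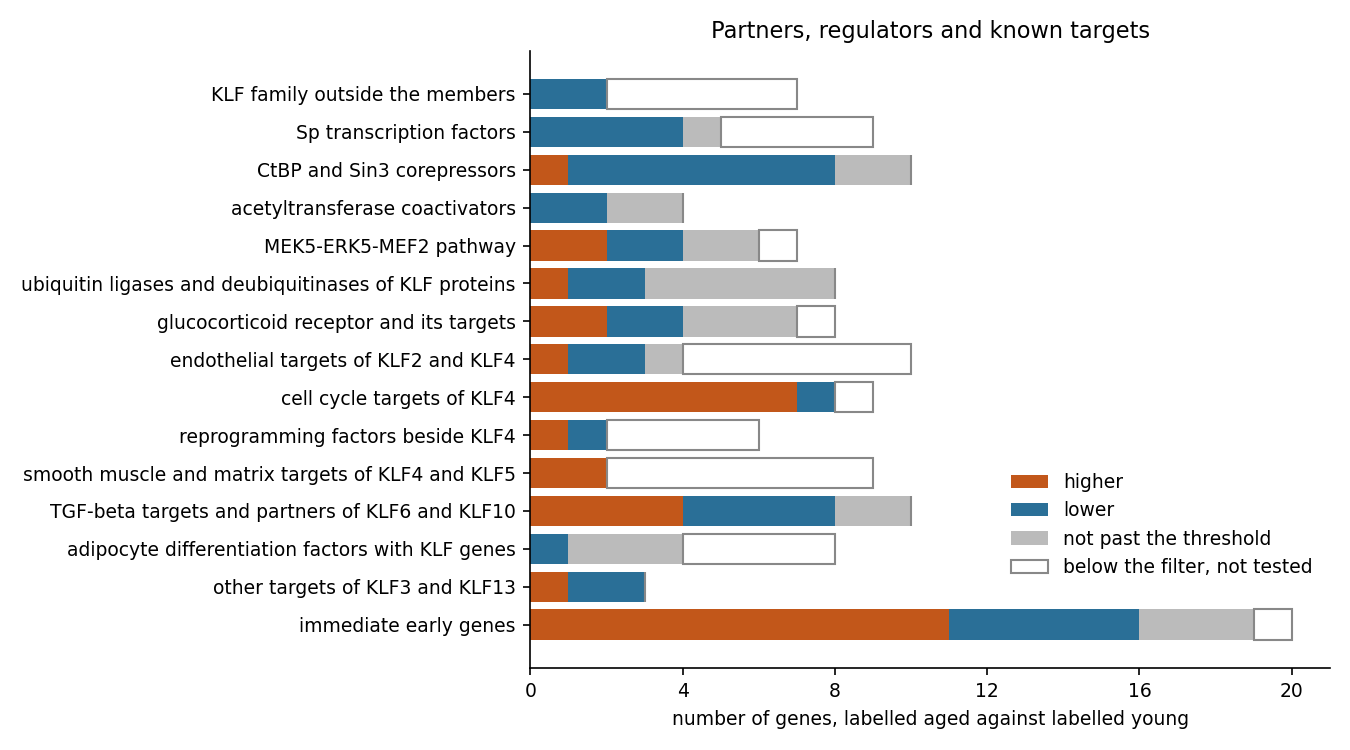
Number of genes (x axis) in each of 15 lists of KLF relatives, partners, regulators and targets that were higher or lower in aged-labelled than in young-labelled libraries, had no call or were below the filter. In the list of cell cycle targets of Klf4, 7 genes are higher and 1 lower, and 4 of the 5 tested Sp factors are lower, beside 27.7% higher and 32.3% lower among all genes tested. The Klf4 list does not separate genes that Klf4 activates from genes that it represses.

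Cell cycle genes known as targets of Klf4 gave 7 higher and 1 lower among 8 tested, at a median log2 fold change of 0.91, beside 27.7% higher and 32.3% lower among all genes tested. Cdkn1a, the cyclin kinase inhibitor p21, measured 84.4, 87.5 and 84.7 FPKM in aged-labelled libraries, against 14.6, 14.3 and 15.9 FPKM in young-labelled ones (log2 fold change 2.44 ± 0.04 SE, adjusted p = 1.11e-06 by limma). Ccnd1 encodes cyclin D1, which Klf4 is known to repress, and measured 169, 167 and 164 FPKM in aged-labelled libraries, against 58.2, 58.4 and 56.2 FPKM in young-labelled ones (log2 fold change 1.52 ± 0.03 SE, adjusted p = 1.11e-06 by limma). Cdkn1b, the inhibitor p27, was the 1 that was lower, at 12.7 ± 0.288 FPKM in aged-labelled libraries, against 26.7 ± 0.305 FPKM in young-labelled ones. An inhibitor and a driver of the cycle are thus both among the higher genes. The list does not separate genes that Klf4 activates from genes that it represses, such as Ccnd1. Its counts are therefore no measure of Klf4 action. Of the reprogramming factors known to act beside Klf4, Pou5f1, Sox2, Nanog and Esrrb were below the filter. Myc was lower, at 39.8 ± 1.53 FPKM in aged-labelled libraries, against 49.3 ± 1.83 FPKM in young-labelled ones. Tbx3 was higher, at 1.74 ± 0.122 FPKM in aged-labelled libraries, against 1.29 ± 0.0318 FPKM in young-labelled ones, and its call was lost without aged-labelled library 1 (limma adjusted p of 0.0541), with no filter on low values (0.0614) and without both libraries with kidney transcripts (0.11).

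Endothelial targets of Klf2 and Klf4 were largely unexpressed, with 4 of 10 tested. Thbd (thrombomodulin), a known target of both, measured 65.4, 66.3 and 65.4 FPKM in aged-labelled libraries, against 16.9, 14.8 and 15.9 FPKM in young-labelled ones (log2 fold change 1.98 ± 0.05 SE, adjusted p = 1.56e-06 by limma). Nos3, endothelial nitric oxide synthase, stood at 0.259 ± 0.0718 FPKM in aged-labelled libraries, against 0.700 ± 0.133 FPKM in young-labelled ones, on 55 reads in aged-labelled libraries and 150 in young-labelled ones. Asl, an enzyme gene of arginine synthesis, stood at 3.57 ± 0.447 FPKM in aged-labelled libraries, against 8.38 ± 0.419 FPKM in young-labelled ones. Among smooth muscle and matrix targets of Klf4 and Klf5, Pdgfa, a growth factor gene that Klf5 is known to activate, was higher, at 21.8 ± 0.667 FPKM in aged-labelled libraries, against 18.3 ± 0.524 FPKM in young-labelled ones.

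TGF-beta targets and partners of Klf6 and Klf10 went both ways, with 4 higher, 4 lower and 2 without a call among 10 tested. Over all genes tested, 27.7% were higher and 32.3% lower. Smad7, the inhibitory Smad that Klf10 is known to repress, measured 8.16, 8.61 and 6.95 FPKM in aged-labelled libraries, against 2.93, 2.88 and 2.69 FPKM in young-labelled ones (log2 fold change 1.21 ± 0.08 SE, adjusted p = 3.21e-05 by limma). Plau (urokinase), a known target of Klf6, stood at 25.5 ± 1.39 FPKM in aged-labelled libraries, against 11.7 ± 1.20 FPKM in young-labelled ones. Tgfbr3, the coreceptor betaglycan, stood at 13.6 ± 1.03 FPKM in aged-labelled libraries, against 22.1 ± 0.820 FPKM in young-labelled ones. Ccl5, the chemokine that Klf13 activates in T cells, measured 7.33, 6.57 and 7.09 FPKM in aged-labelled libraries, against 19.9, 18.2 and 18.3 FPKM in young-labelled ones (log2 fold change -1.31 ± 0.05 SE, adjusted p = 6.61e-06 by limma), a direction opposite to that of Klf13. C1qtnf12, known to be repressed by Klf3, stood at 6.38 ± 0.237 FPKM in aged-labelled libraries, against 12.1 ± 1.20 FPKM in young-labelled ones. Lgals3 (galectin-3), listed with it, stood at 321 ± 19.7 FPKM in aged-labelled libraries, against 281 ± 16.1 FPKM in young-labelled ones, and its call was lost without aged-labelled library 1 or 2 or young-labelled library 1 or 3 (limma adjusted p of 0.0885, 0.0697, 0.0796 and 0.0915). It was also lost with no filter on low values (limma adjusted p of 0.0851) and without both libraries with kidney transcripts, where the log2 fold change was 0.10 (limma adjusted p of 0.378), against 0.19 with all libraries. Of the genes listed for adipocyte differentiation, factors that work with KLF genes among them, 4 were tested and 1 was called. This was Fabp4, a fatty acid binding protein gene, lower at 17.5 ± 0.947 FPKM in aged-labelled libraries, against 24.7 ± 1.23 FPKM in young-labelled ones.

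Klf4, Klf6 and Klf10 are early-response genes in many cells, so other immediate early genes were listed beside them, with 11 higher, 5 lower and 3 without a call among 19 tested and a median log2 fold change of 0.28. The AP-1 gene Fosl1 was higher, at 53.3 ± 2.35 FPKM in aged-labelled libraries, against 21.03 ± 1.30 FPKM in young-labelled ones. Its relative Fosl2 was lower, at 19.9 ± 0.697 FPKM in aged-labelled libraries, against 35.0 ± 0.0868 FPKM in young-labelled ones. Btg2, an antiproliferative gene, was higher, at 14.3 ± 1.07 FPKM in aged-labelled libraries, against 7.84 ± 0.265 FPKM in young-labelled ones. Over all 15 lists, 33 genes of 94 tested were higher and 37 lower, beside 27.7% and 32.3% of all genes tested. Without young-labelled libraries 1 and 3, 25 were higher and 28 lower, beside 19.3% and 21.7% of all genes tested.

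The 5 genes most like Klf4 over the 6 libraries were Nubp2, Dusp6, Itgb7, Stox2 and AC167363.2, by the root mean square difference of centred log2(FPKM + 1) values, which ran from 0.0322 to 0.0762. Nubp2, a gene of iron-sulfur cluster assembly, stood at 69.3 ± 0.634 FPKM in aged-labelled libraries, against 21.5 ± 1.70 FPKM in young-labelled ones. Dusp6, whose product dephosphorylates ERK, stood at 24.9 ± 0.957 FPKM in aged-labelled libraries, against 7.01 ± 0.771 FPKM in young-labelled ones. Itgb7, an integrin subunit gene, stood at 46.5 ± 1.80 FPKM in aged-labelled libraries, against 13.2 ± 0.994 FPKM in young-labelled ones. Stox2 stood at 2.99 ± 0.117 FPKM in aged-labelled libraries, against 0.249 ± 0.0345 FPKM in young-labelled ones. AC167363.2 stood at 3.41 ± 0.419 FPKM in aged-labelled libraries, against 0.461 ± 0.169 FPKM in young-labelled ones. The ratios of mean FPKM of Stox2 and AC167363.2, at least 7.39, were well above the 3.68 of Klf4. These 2 genes thus resemble Klf4 on the log2(FPKM + 1) scale only, which understates changes of low genes. With 2 groups of 3 libraries, such likeness mostly means a similar difference between the groups on that scale. AC167363.2 lies within the span of Cdkn1a, on the other strand, with 183 reads in aged-labelled libraries and 25 in young-labelled ones. Strand use in counting is unknown here, so these reads cannot be told apart from those of Cdkn1a. Of the nearest tested protein-coding neighbours of Klf4, Rad23b, 134.9 kb away, was lower, at 37.0 ± 0.349 FPKM in aged-labelled libraries, against 41.2 ± 2.10 FPKM in young-labelled ones, with the call lost without aged-labelled library 2 (limma adjusted p of 0.0517), after median centring (log2 fold change -0.09, limma adjusted p of 0.121) and without both libraries with kidney transcripts (-0.10, limma adjusted p of 0.152), against -0.15 as reported. Ikbkap, 1217.2 kb away on the other side, stood at 11.2 ± 0.419 FPKM in aged-labelled libraries, against 9.27 ± 0.713 FPKM in young-labelled ones, a log2 fold change of 0.25. Beside Klf5, Pibf1, 44.2 kb away, had no call (limma adjusted p of 0.0775), but was called higher after median centring (0.0275) and with voom on recovered reads (0.0066). Tbc1d4, 2127.3 kb away, stood at 4.84 ± 0.314 FPKM in aged-labelled libraries, against 8.78 ± 0.634 FPKM in young-labelled ones. These neighbours were chosen after values had been seen. Genes that overlap a member were nearly silent. The most reads were 20 in aged-labelled libraries and 26 in young-labelled ones for C230096K16Rik, on the strand of Klf3, and 24 and 18 for Gm20033, on the other strand. With strand use in counting unknown here, such reads cannot be told apart from those of Klf3, which had 3043 reads in aged-labelled libraries and 2806 in young-labelled ones.

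**Figure D5:**
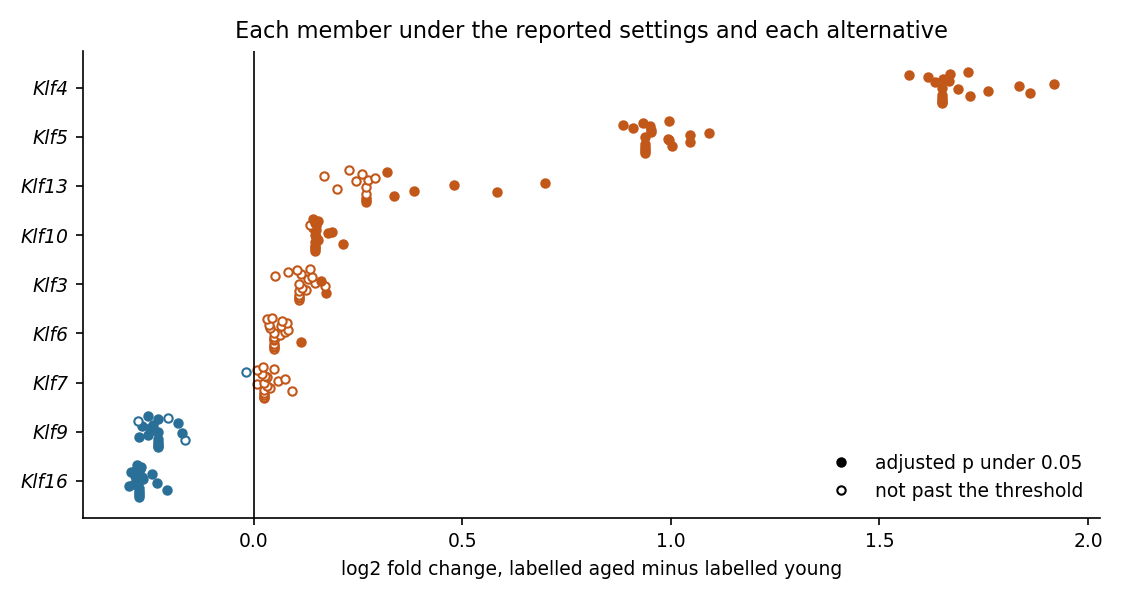
Log2 fold change of each tested member, aged-labelled minus young-labelled, as reported and under each alternative, marked by whether the adjusted p was under 0.05. Klf4 and Klf5 keep clear of the rest, Klf13 spreads widely, and Klf7 falls on both sides of 0.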

How the data were processed

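The authors deposited FPKM values for 54532 genes, beside each gene's length, position and class. Read pairs were aligned with HISAT2 2.0.5 per the labels' protocols, to mm10 per the submitters' processing notes, with the counting program, annotation and strand use not given in the sources used here. FPKM times gene length was a whole multiple of 1 step per library for 100% of values (tolerance 0.01), so whole reads could be recovered. Limits from reads cover counting error only. Libraries of a group differed by more than sampling noise (chi-square per degree of freedom 2.25 to 4.93), so none was merged as a library deposited more than once. This does not show that they are separate samples.

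The age label set the groups. The 15197 genes reaching 0.5 FPKM in 3 or more libraries were fitted on log2(FPKM + 1) with limma 3.58.1 in R 4.3.3 (group as the only term, mean-variance trend, 2-sided test, Benjamini-Hochberg adjustment over all of them, threshold 0.05). This scale understates changes of low genes. The scripts were tested on simulated data. Members, 15 lists (129 entries, 128 found), markers and alternatives were chosen with earlier results of these data known, so list counts are descriptions. The rule named all members, the other KLF genes, up to 3 called genes with the smallest p per list and the 5 genes most like Klf4. A gene that this rule names is not reported here. Alternatives were pseudocounts of 0.1 and 0.5, other filters, median centring, quantile normalization, TPM, voom on recovered reads, limma without trend or robust, the replicate block and leaving out libraries. Tables and figures were made in Python 3.11.15 with pandas 2.3.3 and matplotlib 3.10.9.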

Additional observations from a re-analysis of the deposited data

How the results depend on the processing

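Klf4, Klf5 and Klf16 kept their direction and call in all 18 alternatives, with log2 fold changes of 1.57 to 1.92, 0.89 to 1.09 and -0.30 to -0.21. The 4 members higher and 2 lower became 2 and 1 without both libraries with kidney transcripts, an alternative added after the data were seen, under which 19.3% of all genes were higher and 21.7% lower. It leaves 1 young-labelled library, assumed to vary like the others. Median centring gave 6 higher and 1 lower, and over all genes tested 32.8% higher and 26.5% lower, against 27.7% and 32.3% as reported. Leaving out 1 library gave 3 to 4 higher and 1 to 2 lower, and over all genes tested 24.8% to 26.5% higher and 28.7% to 30.8% lower. Klf7, never called, was reversed to -0.019 without both libraries with kidney transcripts, where, beside the calls named in the results, those of Itch, Nos3 and Pdgfa were lost (limma adjusted p of 0.0575, 0.0853 and 0.0572). Shares of recovered reads, which ignore gene length, gave Klf4 9.59% in aged-labelled libraries and 3.13% in young-labelled ones, and Klf6 29.9% in aged-labelled libraries. Of 1024 values for single genes under the alternatives, 985 kept direction and side of the threshold. Limma robust or without trend, the other filters and the replicate block leave each fold change as it was, so there only the call could move. Where a call was lost, the cause was not tested. Replicate numbers are shared between groups, but same-numbered libraries did not deviate together (r across genes of 0.00562, -0.00793 and 0.0192). Differently numbered ones gave r of -0.0402 to 0.036. A pairing with a small effect, or one on few genes, could not be seen this way. With the replicate number as a block, 3 members were higher and 2 lower (Klf13 lost its call at a limma adjusted p of 0.0721), with 3927 genes higher and 4514 lower in all. Klf13 was not tested with a mean FPKM of at least 1 as the filter. Depth limits Klf2 and Klf13 most.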
